A study of Mus musculus with 8 samples.

Results

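Growth factors that macrophages are known to make, or that act on the gland they live in, were followed across 4 groups of sorted mammary macrophages. The genes were Hgf, Igf1, Pdgfa, Pdgfb, Pdgfc, Wnt7b, Ptn and Grn. They were chosen by name, though with earlier results of these data known, and 21 probe sets of the array carry one of these symbols and no other. For each gene the probe set with the highest mean signal over the 8 arrays was used. The 8 genes are part of 18193 genes with a probe set of a single symbol, among 45101 probe sets in all. All 8 lay above the median signal of their array on at least 2 arrays and entered the test, which covered 13041 genes.

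The study asked what happens in macrophages of the mammary gland when a growth factor receptor is switched on in the epithelium beside them. Its model, MMTV-iFGFR1, is a transgene for an inducible form of fibroblast growth factor receptor 1 under the MMTV promoter, which is active mainly in mammary epithelium. A small molecule, the dimerizer, activates the receptor. Females with the transgene and littermates lacking it shared the inbred FVB background and were 6 weeks old at the start.

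The 4 groups were transgenic females given dimerizer for 48 hours, non-transgenic control littermates given dimerizer for 48 hours, transgenic females given dimerizer for 4 weeks, and control littermates given dimerizer for 4 weeks. Dimerizer was thus common to all groups, and no group went without it. Glands were digested with collagenase and cells that stained for Cd11b were sorted. Each array took RNA pooled from 3 mice, with 2 pools to a group, so a p-value here measures the spread between pools. For transgenic 4 weeks pool 2 the description speaks of mice without the transgene, while the title, the source and the genotype name it as transgenic, and it was used as transgenic.

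Hepatocyte growth factor, insulin-like growth factor 1, the platelet-derived growth factors and the Wnt proteins are secreted ligands that act through receptors on neighbouring epithelial, stromal or vascular cells. Tissue macrophages are a known source of several of them, and in the mammary gland macrophages take part in the outgrowth of ducts. Pleiotrophin binds heparin and cell-surface proteoglycans and is a growth factor of neural and epithelial tissues, while progranulin is both a secreted growth factor and a protein of the lysosome, abundant in macrophages.

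The sorted cells carried macrophage transcripts on every array. Csf1r, the receptor of colony-stimulating factor 1, lay between 68311 and 93065 signal units, and Adgre1, the F4/80 antigen, between 9842 and 14627. Itgam, which encodes Cd11b itself, was dim, with 46.8 units for control 4 weeks pool 2 and 184 to 545 for the other arrays. Transcripts of other cell types were present too. The summed signal of 13 luminal epithelial markers was 13486 and 13967.5 in transgenic pools, against 5094 and 5373 in control pools at 48 hours, and 13030.5 and 7732 in transgenic pools, against 15543 and 10599.8 in control pools at 4 weeks. That of 10 neutrophil markers was 5494 and 6533 in transgenic and 11048 and 13312 in control pools at 48 hours, and 4196 and 3091 in transgenic and 6116 and 18478 in control pools at 4 weeks. The summed signal of 13 fibroblast markers lay between 42214 and 93394 over the 8 arrays, and that of 8 adipocyte markers between 41986 and 73827. None of these markers had a signal of 0 on any array. The lowest signal of any probe set was 0.3 units, so this does not show that a marker was expressed. In bulk RNA of this kind fewer cells of a type and less RNA per cell cannot be told apart. Actin control probes, whose 3′ over 5′ signal grows as RNA gets shorter, stood at 37.0-fold for control 4 weeks pool 2 and at 6.84 to 13.9-fold for the other arrays. On the log2 scale it was 3.06 ± 0.32 in transgenic and 3.88 ± 0.95 in control pools (SD, n = 4 each, exact permutation test, two-sided, p = 0.143, where 0.0286 is the lowest p it can give).

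Signals are the linear values that the submitters' MAS5 software gave, scaled so that each array has about the same trimmed mean of 500. Differences were tested in limma on log2 of the signal plus an offset of 30.8 units and are given as transgenic minus control. They understate changes of dim genes. Signals of different probe sets are not on a shared scale, so no gene's level is set against another's. The deposited table holds no detection calls, and a low signal cannot be told from absence.

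**Figure D1:**
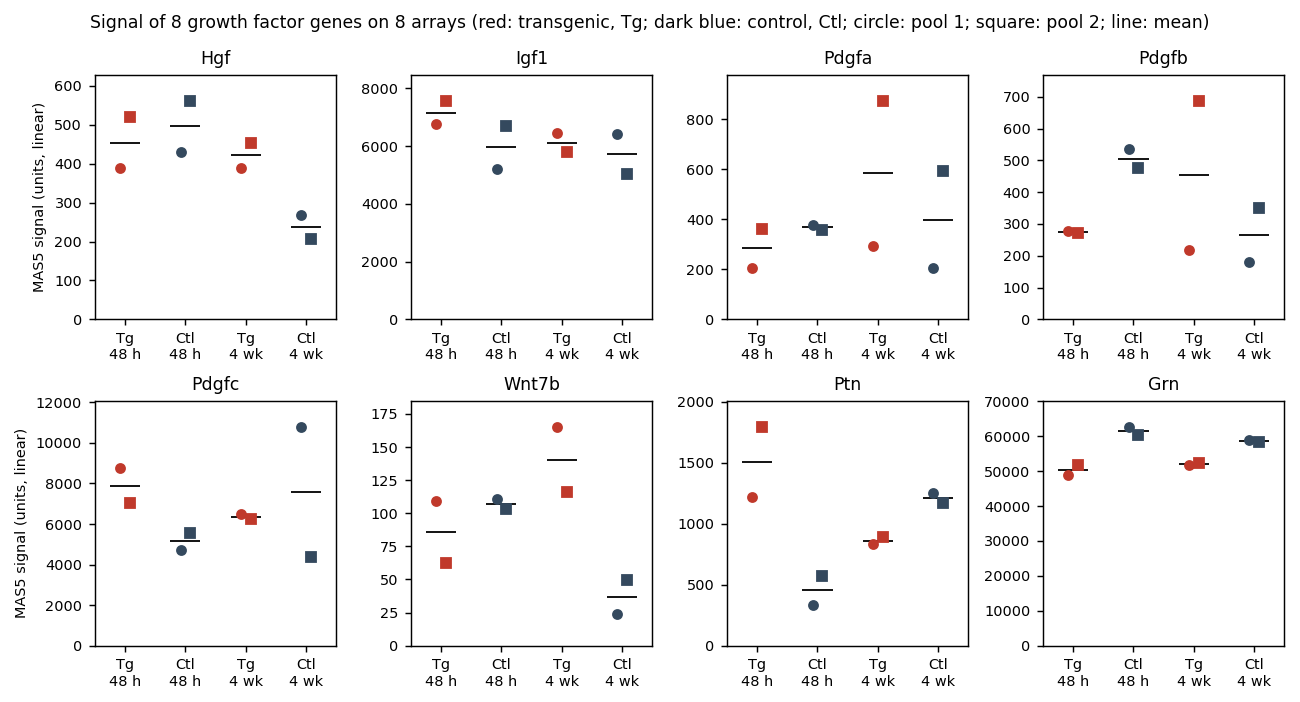
MAS5 signal (linear units, axis from 0, own scale for each gene) of the 8 growth factor genes on the 8 arrays, by transgenic (Tg) and control (Ctl) pools at 48 hours (48 h) and 4 weeks (4 wk), with pool 1 as circles, pool 2 as squares and group means as lines. The Ptn panel shows transgenic pools at 1215 and 1792 over control pools at 336 and 573 at 48 hours, and the Grn panel shows the 4 transgenic pools below the 4 control pools.

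Across the 8 genes, none passed an adjusted p of 0.05 in any of 6 comparisons, which makes 48 tests. The lowest adjusted p among them was 0.456. Over all 13041 genes limma called 0 genes, or 0%, between genotypes at 48 hours, at 4 weeks and over both times. At an unadjusted p under 0.05 the genotype comparison held 531 genes (4.07%) at 48 hours and 662 genes (5.08%) at 4 weeks. Of the 8 growth factor genes 1 was under that line at 48 hours (Ptn) and 2 at 4 weeks, Hgf and Wnt7b. Wnt7b passed the filter on dim genes only through transgenic arrays, and it is high in transgenic pools at 4 weeks. Its place in that count therefore carries no weight. Over both times 597 genes (4.58%) were, and 1 of the 8 (Grn).

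Pools of the genotypes did not overlap in 5 of the 8 genes at 48 hours, where 35% of all genes did not overlap. Igf1, Pdgfc and Ptn lay higher in transgenic pools (18.9% of all genes did), and Pdgfb and Grn lower (16.1%). At 4 weeks 4 of the 8 did not overlap, with 31.9% of all genes. Hgf and Wnt7b lay higher in transgenic pools (14.7%), and Ptn and Grn lower (17.2%). The median log2 difference of the 8 genes was −0.20 at 48 hours, against 0.04 for all genes, and 0.30 at 4 weeks, against −0.02 for all genes. The count and the median at 4 weeks include Wnt7b, which passed the filter only through transgenic arrays. Neither therefore carries weight as a shift of the 8 genes.

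**Figure D2:**
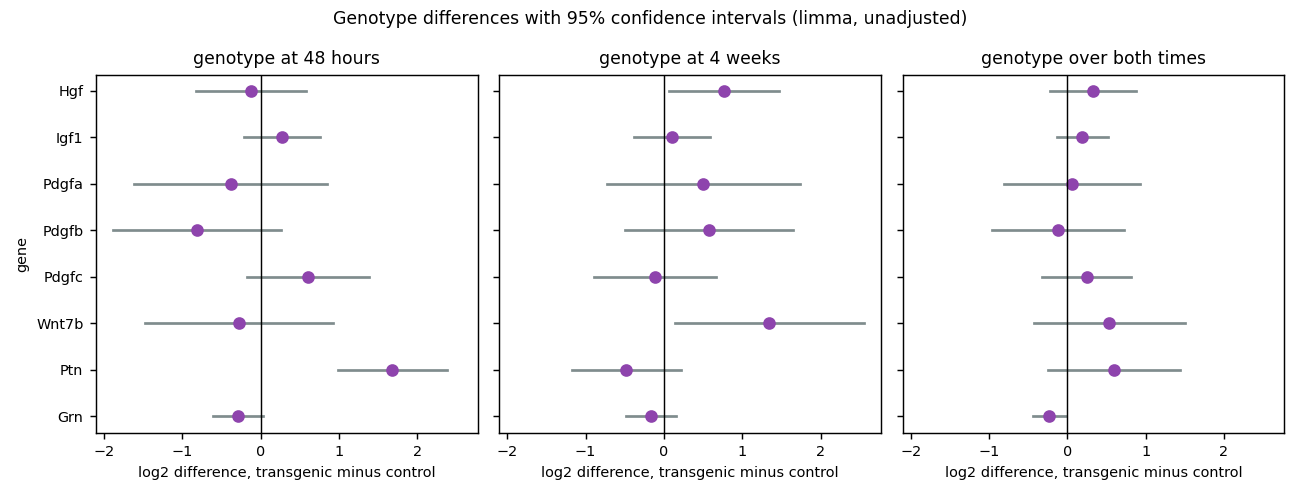
Log2 difference of signal, transgenic minus control (x axis), of the 8 genes (y axis) at 48 hours, at 4 weeks and over both times, with points for the limma estimates and lines for 95% confidence intervals that are not adjusted for the number of genes. The interval of Ptn at 48 hours runs from 0.99 to 2.37. Intervals that leave out 0 are those of Ptn at 48 hours, Hgf and Wnt7b at 4 weeks and Grn over both times. Wnt7b passed the filter only through transgenic arrays, so its interval carries no weight.

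Ptn, which encodes pleiotrophin, had the lowest p of the 8 in the genotype comparison at 48 hours. At 48 hours its signal was 1215 and 1792 in transgenic pools, against 336 and 573 in control pools. The mean signal was 3.31 times as high in transgenic pools, and both lay above both control pools. The log2 difference was 1.68 (SE 0.31, 95% interval 0.99 to 2.37), with the 5th lowest p of 13041 genes and adjusted p = 0.76. At 4 weeks the order was the other way round. Transgenic pools gave 829.8 and 890.4 units and control pools 1251 and 1173, a log2 difference of −0.48 (SE 0.31, −1.18 to 0.21) with adjusted p = 0.986. The genotype difference at 4 weeks minus that at 48 hours was −2.16 (SE 0.44, adjusted p = 0.66), with the 11th lowest p of all genes. Separation upwards at 48 hours and downwards at 4 weeks was seen in 418 of all genes, or 3.21%.

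Between 48 hours and 4 weeks of dimerizer the log2 difference of Ptn was −0.76 (SE 0.31, adjusted p = 1.00) in transgenic and 1.40 (SE 0.31, adjusted p = 0.456) in control pools, so that in control pools the mean signal was 2.67 times as high at 4 weeks. Age and time on dimerizer advanced together and cannot be told apart.

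The second Ptn probe set kept the direction of both differences. It gave 524 and 1230.5 units in transgenic pools, against 471 and 385.5 in control pools at 48 hours, and 396 and 308.5 in transgenic pools, against 619.8 and 971 in control pools at 4 weeks. Its log2 differences were 0.87 (SE 0.40) and −1.09 (SE 0.40). The third Ptn probe set was dim at 38.9 to 186 units and had log2 differences of −0.17 (SE 0.62) and 0.43 (SE 0.62).

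Luminal epithelial markers lay in the same order as Ptn at 48 hours. Krt8, a keratin of luminal cells, gave 2747 and 3692 units in transgenic pools, against 625 and 702 in control pools at 48 hours, and 2549 and 1466 in transgenic pools, against 3965 and 2137 in control pools at 4 weeks. At 48 hours 9 of the 12 luminal markers tested lay above 0, with a median of 1.32, and 7 had an unadjusted p under 0.05. At 4 weeks 4 lay above 0, with a median of −0.09, and 0 were called at either time. Over time in control pools 9 of the 12 lay above 0, with a median of 1.18. There 7 had an unadjusted p under 0.05, as did 6.16% of all genes. In the genotype difference at 4 weeks minus that at 48 hours 3 lay above 0, with a median of −1.65. There 6 had an unadjusted p under 0.05, as did 4.74% of all genes. In both comparisons 0 of the luminal markers were called. The summed signals given above were higher in both transgenic pools at 48 hours, and at 4 weeks the pools overlapped. Stromal and vascular lists leaned the same way at 48 hours, though 0 of their genes were called. Pericyte and smooth muscle markers were positive in 7 of 7 (median 0.54) at 48 hours and 2 of 7 (−0.32) at 4 weeks, and over time in control pools in 7 of 7 (0.28). Their summed signals were 3305 and 10975.5 in transgenic and 2787 and 6079 in control pools at 48 hours, and 3271.5 and 5139 in transgenic and 3467 and 7468 in control pools at 4 weeks, which overlap at both times. Fibroblast markers were positive in 13 of 13 (0.37) and 9 of 13 (0.10), with sums of 78917 and 83132 in transgenic and 42214 and 93394 in control pools at 48 hours. Endothelial markers were positive in 7 of 9 (0.40) and 4 of 9 (−0.09). Their sums at 48 hours overlap, at 2464 and 7974 in transgenic and 2815.5 and 3770 in control pools. Also at 48 hours, adipocyte markers were positive in 4 of 6 (0.29) and myoepithelial markers in 3 of 6 (0.03). Schwann and neural crest markers were positive in 0 of 3 (−0.50). The part of any of these transcripts in the Ptn result was not tested. Ptn lies on chromosome 6 at 36714924 to 36810179 (GRCm38.p6).

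**Figure D3:**
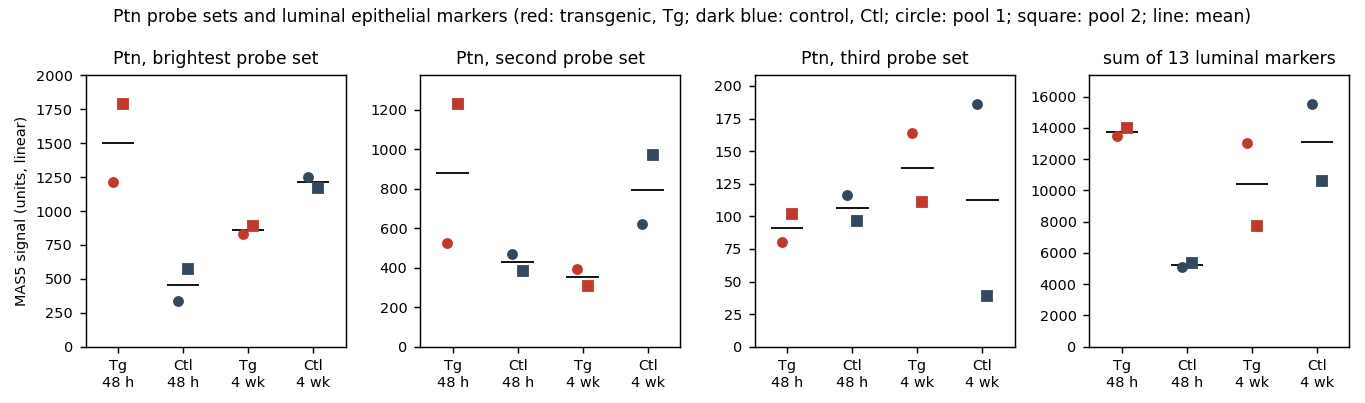
MAS5 signal (linear units, axis from 0, own scale for each panel) of the 3 Ptn probe sets and the summed signal of 13 luminal epithelial markers, by transgenic (Tg) and control (Ctl) pools at 48 hours (48 h) and 4 weeks (4 wk), with pool 1 as circles, pool 2 as squares and group means as lines. In the panels of the brightest probe set and of the luminal sum the control pools at 48 hours are the lowest, at 336 and 573 and at 5094 and 5373.

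The promoter of Ptn is shown because Ptn had the lowest genotype p of the 8 genes at 48 hours. That of Grn is shown because its pools lay in the same order, without overlap, at both times. Each holds 250 bases before and 50 after the transcript start, from RefSeq (GRCm38.p6), Ptn at chr6:36810130-36810429 on the minus strand and Grn at chr11:102430257-102430556 on the plus strand, and 6 of the 8 genes were in that table. Capitals mark matches to CCAAT (the CCAAT box), GGGCGG (a GC box) and TCACATGA (an extended E-box of the kind bound by the MITF and TFE factors, which drive lysosomal genes).
Ptn: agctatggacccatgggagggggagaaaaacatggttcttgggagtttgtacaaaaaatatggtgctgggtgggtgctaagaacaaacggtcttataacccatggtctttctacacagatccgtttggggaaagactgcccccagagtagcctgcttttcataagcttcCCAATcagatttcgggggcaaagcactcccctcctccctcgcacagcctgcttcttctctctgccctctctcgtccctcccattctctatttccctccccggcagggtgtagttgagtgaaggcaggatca
Grn: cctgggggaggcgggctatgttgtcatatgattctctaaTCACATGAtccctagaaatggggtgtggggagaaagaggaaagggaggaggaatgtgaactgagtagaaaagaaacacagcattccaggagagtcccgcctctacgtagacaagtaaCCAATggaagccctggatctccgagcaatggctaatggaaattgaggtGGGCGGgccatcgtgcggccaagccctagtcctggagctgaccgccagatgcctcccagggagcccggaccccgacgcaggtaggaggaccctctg
Matches were sought on both strands for 6 motifs, none of which contains another. The Ptn window held CCAAT at 81 bases before the start. The Grn window held TCACATGA at 211, CCAAT at 94 and GGGCGG at 46 bases before it. Among 32851 promoters of 300 bases, CCAAT was found in 37.4%, GGGCGG in 35.7%, TATAAA in 13.6%, CACGTG in 7.15%, TGAGTCA in 5.20% and TCACATGA in 0.986%. A match is a run of letters, and these arrays hold no measure of binding.

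Grn, which encodes progranulin, was the one gene of the 8 in which every transgenic pool lay below every control pool. At 48 hours it gave 48882 and 51615 units in transgenic pools, against 62612 and 60279.6 in control pools. At 4 weeks it gave 51837 and 52333 in transgenic pools, against 58973 and 58267 in control pools. Over both times the log2 difference was −0.23 (SE 0.10, 95% interval −0.44 to −0.02), with adjusted p = 0.957. Of all genes 195 (1.5%) separated in this direction over the 8 arrays. Among the 100 probe sets with the highest mean signal, which include that of Grn, 19 did. The differences at each time were −0.29 (SE 0.14) and −0.17 (SE 0.14), and they differed from one another by 0.12 (SE 0.20).

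The 2 other Grn probe sets lay on the same side over both times. The next brightest gave 46907 and 44050.4 units in transgenic and 53475 and 52307 in control pools at 48 hours, and 46469.5 and 43979 in transgenic and 59259 and 50017 in control pools at 4 weeks, again with every transgenic pool below every control pool. Its log2 difference over both times was −0.24 (SE 0.16), and that of the dimmest, whose pools overlapped, was −0.33 (SE 0.20). The 2 brightest are of the Affymetrix class (x_at) whose probes may match other transcripts too. Grn lies on chromosome 11 at 102430507 to 102436809.

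The brightest probe sets of the arrays moved with Grn. Among the 100 probe sets with the highest mean signal, of which Grn's is number 41, the difference over both times was negative in 97, with a median of −0.16. After quantile normalization, which gives each array the same distribution of signals, it was negative in 47 with a median of 0.00. The Grn difference was then −0.08 over both times, and at 4 weeks the pools overlapped, at 57989 and 52557 in transgenic and 59181 and 55709.6 in control pools. At 48 hours they still did not overlap, at 52385 and 54174 in transgenic and 54673 and 59181 in control pools. The neutrophil sums given above were also lower in transgenic pools at each time. The summed signal of 6 platelet and megakaryocyte markers, most of it Pf4, was 47099 and 49910.1 in transgenic and 53857.5 and 54853 in control pools at 48 hours, and 46853 and 48833 in transgenic and 58720 and 53495 in control pools at 4 weeks. Every transgenic pool lay below both control pools of its time, while 3 of the 6 genes were negative over both times. The part of these transcripts in the Grn result was not tested.

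**Figure D4:**
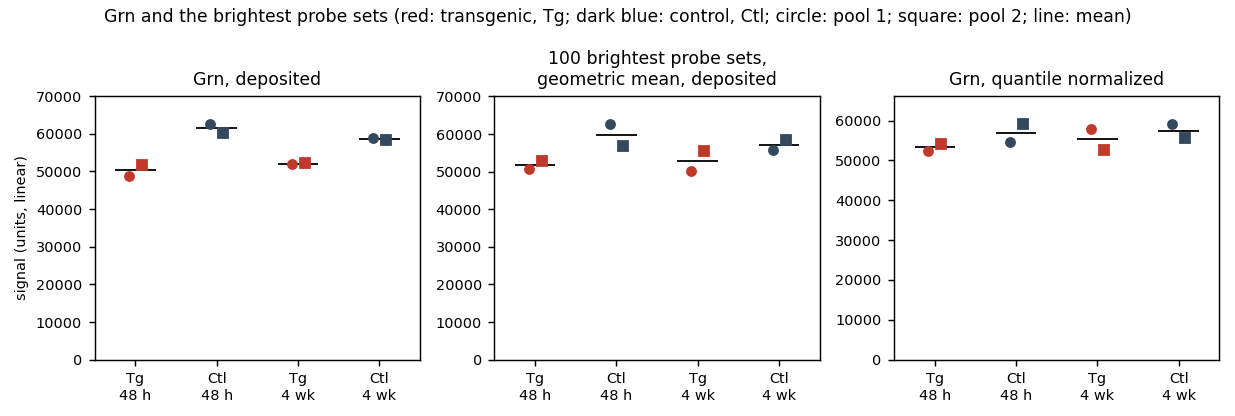
Linear signal (axis from 0) of Grn as deposited, the geometric mean of the 100 brightest probe sets as deposited, and Grn after quantile normalization, by transgenic (Tg) and control (Ctl) pools at 48 hours (48 h) and 4 weeks (4 wk), with pool 1 as circles, pool 2 as squares and group means as lines. Grn as deposited lies between 48882 and 52333 in transgenic and between 58267 and 62612 in control pools, and after quantile normalization the 4 weeks pools overlap.

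Hgf, whose product hepatocyte growth factor activates the receptor MET on epithelium, had its larger genotype difference at 4 weeks. At 48 hours it gave 388 and 519 units in transgenic pools, against 431 and 561.5 in control pools. At 4 weeks it gave 390 and 454 in transgenic pools, against 267 and 205 in control pools. The pools overlapped at 48 hours and did not at 4 weeks, where the control pools were low. The log2 differences were −0.12 (SE 0.31, adjusted p = 0.987) and 0.77 (SE 0.31, 95% interval 0.07 to 1.47, adjusted p = 0.965), and the difference between them, 0.89 (SE 0.44), had adjusted p = 0.988.

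At 4 weeks against 48 hours the log2 difference of Hgf was −0.09 (SE 0.31) in transgenic and −0.98 (SE 0.31, adjusted p = 0.646) in control pools. Leaving out control 4 weeks pool 2, whose actin probes stood at 37.0-fold, gave 0.60 at 4 weeks, and leaving out control 4 weeks pool 1 gave 0.94. The 2 other Hgf probe sets were above the array median on 0 arrays. They gave −0.62 (SE 0.63) and −1.25 (SE 0.49) at 48 hours and −0.22 (SE 0.63) and −0.30 (SE 0.49) at 4 weeks. The summed signal of 7 dendritic cell markers was 5127 and 7301.5 in transgenic and 2899.5 and 4132 in control pools at 4 weeks, in the order of Hgf and Wnt7b. Of the 7 markers, 4 had a positive and 3 a negative difference at 4 weeks. The part of these markers in either result was not tested. The Hgf gene lies on chromosome 5 at 16553495 to 16619439.

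Igf1, which encodes insulin-like growth factor 1, a mediator of growth hormone in ductal growth, had near values in all groups. It gave 6751 and 7569.5 units in transgenic pools, against 5223 and 6692 in control pools at 48 hours. At 4 weeks the values were 6441 and 5803 in transgenic pools, against 6426 and 5033 in control pools. Transgenic pools lay just above control pools at 48 hours and overlapped them at 4 weeks. The log2 differences were 0.27 (SE 0.22, 95% interval −0.21 to 0.76) and 0.10 (SE 0.22, −0.38 to 0.59).

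All 4 Igf1 probe sets were above the array median on all 8 arrays. The 3 others gave 0.37 (SE 0.23), 0.16 (SE 0.34) and −0.03 (SE 0.33) at 48 hours and −0.08 to 0.06 at 4 weeks. Within each group the pool with the higher signal of the brightest Igf1 probe set also had the higher summed signal of 13 fibroblast markers. The part of those transcripts in the Igf1 signal was not tested. The gene lies on chromosome 10 at 87858265 to 87937047.

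The platelet-derived growth factors act on fibroblasts and pericytes through PDGFRA and PDGFRB. Pdgfc, whose product is secreted in a latent form that proteases activate, gave 8747 and 7033 units in transgenic pools, against 4724 and 5565.5 in control pools at 48 hours. Both transgenic pools were higher, with a log2 difference of 0.61 (SE 0.35, 95% interval −0.17 to 1.39, adjusted p = 0.976). At 4 weeks the control pools enclosed the transgenic ones, with 6473 and 6229.8 in transgenic pools, against 10783 and 4369 in control pools, and a log2 difference of −0.11 (SE 0.35). It was 0.54 without control 4 weeks pool 1 and −0.76 without control 4 weeks pool 2. The second Pdgfc probe set gave 0.57 (SE 0.36) and −0.33 (SE 0.36). The 48 hours difference was 0.33 once the actin ratio entered as a covariate. Fibroblast markers, given beside Ptn, were also positive at 48 hours, in 13 of 13, and their part in the Pdgfc result was not tested.

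Pdgfb, the B chain known for the recruitment of pericytes by endothelium, gave 278 and 272 units in transgenic pools, against 534 and 477 in control pools at 48 hours. Both transgenic pools were lower there, with a log2 difference of −0.81 (SE 0.48, 95% interval −1.88 to 0.26, adjusted p = 0.976). At 4 weeks the values were 219 and 687 in transgenic pools, against 181 and 350.5 in control pools, which overlap, and the log2 difference was 0.58 (SE 0.48). It was −0.19 without transgenic 4 weeks pool 2, the pool with the conflicting description. The difference between the times was 1.38 (SE 0.68, adjusted p = 0.988). The other Pdgfb probe set lay at 15.7 to 166 units and gave 0.35 (SE 0.76) at 48 hours, on the other side of 0.

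Pdgfa, the A chain, gave 207 and 362 units in transgenic pools, against 378 and 358 in control pools at 48 hours. At 4 weeks the values were 294.5 and 874 in transgenic pools, against 206 and 592 in control pools. Pools overlapped at both times, and pool 2 was the higher of each 4 weeks pair. The log2 differences were −0.38 (SE 0.55) and 0.50 (SE 0.55), and those of the other probe set 0.50 (SE 0.55) and 0.81 (SE 0.55). The 4 weeks difference was −0.24 without transgenic 4 weeks pool 2 and −0.20 without control 4 weeks pool 1, and that at 48 hours ran from −0.75 to −0.020 without single pools. Pdgfa lies on chromosome 5 at 138976014 to 139000792, Pdgfb on chromosome 15 at 79995865 to 80024614 and Pdgfc on chromosome 3 at 81036416 to 81214040.

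Wnt7b, a Wnt ligand by which macrophages of the developing mouse eye act on blood vessels, had dim signals throughout. It gave 109 and 62.2 units in transgenic pools, against 111 and 103 in control pools at 48 hours. At 4 weeks it gave 165 and 116 in transgenic pools, against 24.3 and 49.9 in control pools. Pools overlapped at 48 hours, and at 4 weeks both transgenic pools were higher. The log2 differences were −0.27 (SE 0.54) and 1.35 (SE 0.54, 95% interval 0.15 to 2.55, adjusted p = 0.965).

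The size of the 4 weeks difference depended on the offset, with 1.99 for no offset and 0.77 for an offset at the median signal. Wnt7b was above the array median on 3 arrays, all 3 of them transgenic. It thus entered the test through the genotype in which it is high at 4 weeks. A second Wnt7b probe set was above the median on 0 arrays and gave 0.40 (SE 0.47) at 4 weeks. The gene lies on chromosome 15 at 85535437 to 85581821.

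**Figure D5:**
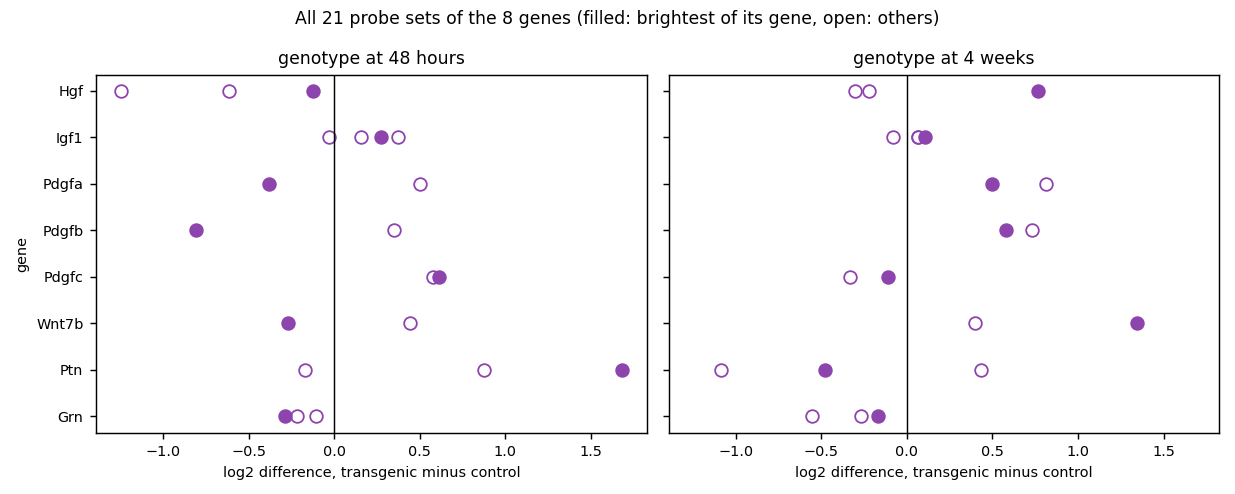
Log2 difference of signal, transgenic minus control (x axis), of all 21 probe sets of the 8 genes (y axis) at 48 hours and 4 weeks, with filled points for the brightest probe set of each gene and open points for the others. The probe sets of Igf1 lie close together, from −0.03 to 0.37 at 48 hours, while those of Ptn run from −0.17 to 1.68.

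Over the time on dimerizer, 5 of the 8 genes did not overlap in transgenic pools (28.5% of all genes did not) and 5 did not in control pools (31.8%). Both counts include Wnt7b, which passed the filter only through transgenic arrays. Wnt7b and Grn lay higher at 4 weeks in transgenic pools, and Igf1, Pdgfc and Ptn lower. In control pools Ptn lay higher at 4 weeks, and Hgf, Pdgfb, Wnt7b and Grn lower. The Pdgfb difference was 0.47 (SE 0.48) in transgenic and −0.92 (SE 0.48) in control pools, and that of Wnt7b 0.57 (SE 0.54) and −1.05 (SE 0.54). In control pools 1 gene of all passed (0.00767%), F5, the coagulation factor V, which was named after its values were seen, at −2.36 (adjusted p = 0.04). The count was 0 in 7 of the 8 fits without 1 pool, with no trend, with array weights and with the filter at the 75th percentile. In transgenic pools 0 passed, with 286 at an unadjusted p under 0.05.

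Other ligands of the same families were listed as 23 genes, of which 14 were bright enough to test. In the genotype comparisons 0 of the 14 were called, and 0 had an unadjusted p under 0.05 at either time. The list had 7 positive differences and a median of 0.00 at 48 hours, and 6 and −0.14 at 4 weeks. Wnt3a, a ligand of the canonical Wnt pathway, gave 110 and 15 units in transgenic pools, against 237 and 145 in control pools at 48 hours, and 118 and 112.5 in transgenic pools, against 11 and 38.4 in control pools at 4 weeks. Its log2 differences were −1.43 (SE 0.67) and 1.44 (SE 0.67), on the same side as those of Wnt7b at each time, and 2 of its 8 signals lay under the offset. Psap, the precursor of the saposins and a partner of progranulin on its way to the lysosome, had differences of 0.12 (SE 0.20) and 0.17 (SE 0.20). Mdk, midkine, the one relative of pleiotrophin, had 0.07 (SE 0.40) and −0.37 (SE 0.40).

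Receptors of these ligands were listed as 36 genes, 35 with a probe set and 30 tested, and 0 were called. At 48 hours 19 were positive with a median of 0.17, and at 4 weeks 15 with a median of −0.02. Ncl, nucleolin, a nucleolar protein that also binds pleiotrophin at the cell surface, gave 3626 and 4407 units in transgenic pools, against 2009 and 2415 in control pools at 4 weeks. Both transgenic pools were higher, with a log2 difference of 0.85 (SE 0.23, adjusted p = 0.893), against 0.20 (SE 0.23) at 48 hours.

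Fzd8, a receptor of Wnt proteins, had its pools in the order of Ptn at both times. It gave 179 and 357 units in transgenic pools, against 90.1 and 69.6 in control pools at 48 hours, and 145 and 177.5 in transgenic pools, against 425 and 292 in control pools at 4 weeks. The log2 difference was 1.37 (SE 0.42, adjusted p = 0.976) at 48 hours, and that at 4 weeks minus that at 48 hours was −2.38 (SE 0.60, adjusted p = 0.988). Over both times Fzd10, another Wnt receptor, had −0.79 (SE 0.34) and Igf2r, which carries insulin-like growth factor 2 to the lysosome, −0.55 (SE 0.24), with adjusted p = 0.957 for each. Nrp1, neuropilin 1, lay at 12545 to 18349 units on all arrays and had differences of 0.22 (SE 0.21) and 0.03 (SE 0.21).

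Proteins that activate, carry or inhibit these ligands were listed as 35 genes, 27 of them tested, and 0 were called. At 48 hours 18 were positive with a median of 0.15, and at 4 weeks 17 with a median of 0.10. Igfbp5 and Igfbp6, which bind insulin-like growth factors, were higher in both transgenic pools at 48 hours. Igfbp6 gave 1037 and 706 units in transgenic pools, against 235 and 437 in control pools, a log2 difference of 1.33 (SE 0.45, adjusted p = 0.976). Igfbp5 gave 1739 and 2186 in transgenic pools, against 934 and 851 in control pools, a log2 difference of 1.10 (SE 0.41, adjusted p = 0.976). Sfrp4, a secreted inhibitor of Wnt proteins, had 1.81 (SE 0.77) with overlapping pools, and Notum, an enzyme that inactivates Wnt proteins, had −1.47 (SE 0.61) at 4 weeks. The luminal, fibroblast, pericyte and endothelial lists, given beside Ptn, leaned the same way at 48 hours as Fzd8, Igfbp5 and Igfbp6, and their part was not tested.

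Regulators and downstream targets were listed as 19 genes, 18 with a probe set and 17 tested, and 0 were called. At 48 hours 10 were positive with a median of 0.14, and at 4 weeks 11 with a median of 0.03. Ghr, the growth hormone receptor upstream of Igf1, gave 523 and 858 units in transgenic pools, against 151 and 449 in control pools at 48 hours, a log2 difference of 1.25 (SE 0.44, adjusted p = 0.976). Lgr5, a Wnt target and stem cell receptor of epithelia, had 92.2 and 108 units in transgenic pools, against 9.1 and 9.7 in control pools at 48 hours. Those control values lie under the offset of 30.8 units, and its log2 difference was 1.70 (SE 0.62). Angpt2, angiopoietin 2, a ligand of vessel remodelling, had 1.61 (SE 0.70) with overlapping pools.

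Each of the 8 genes was set against all other tested genes by the Pearson correlation of log2 values over the 8 arrays, as a description of likeness. Pdia5, a protein disulfide isomerase of the endoplasmic reticulum, was most like Ptn (r = 0.98), followed by Golga5 and Endod1 (both 0.97), and 37 genes exceeded 0.9. Npc2, a cholesterol carrier of the lysosome, was the second most like Grn (0.94), after Uvssa (0.95). Mtor was most like Hgf (0.97), Ppp3cb most like Igf1 (0.96) and Kirrel most like Wnt7b (0.94). Tob2 was most like Pdgfa (0.98), Ndel1 most like Pdgfb (0.97) and Sacm1l most like Pdgfc (0.97). The 8 points share the scaling of their arrays.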

How the data were processed

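Total RNA of sorted macrophages was amplified by a T7 method in 2 cycles and hybridised to Affymetrix arrays, 1 array for each pool of 3 mice, per the labels' protocols. The deposited table holds an intensity for each of 45101 probe sets on 8 arrays, which the authors computed in MAS5 (per the submitters' processing notes); its version is not given in the sources used here. The values are linear, and the trimmed mean of each array, without the 2% at either end, is 500. The number of arrays limits the precision.

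Gene symbols came from the platform annotation, where 34945 probe sets have 1 symbol, 932 several and 9160 none, beside 64 array controls. The probe set with the highest mean signal was taken for each gene, and 13041 genes above the array median on at least 2 arrays were tested. The test was limma 3.58.1 in R 4.3.3 on log2(signal + 30.8), the offset being the 25th percentile of all values, with a mean for each group, a trended prior, two-sided p-values and Benjamini-Hochberg adjustment over all genes. The genotype test over both times had time as a covariate. The script was tested on simulated data. Figures were drawn with matplotlib 3.10.9. The genes and lists were chosen with earlier results of these data known. Of each list, the text names up to 4 genes with the smallest p in a genotype comparison and, of ligands and receptors, some of the brightest 5.

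Alternatives were quantile normalization, other offsets and filters, other rules for probe sets, no trend, array weights, a replicate block, the actin ratio as a covariate, each time alone and leaving out each pool.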

Additional observations from a re-analysis of the deposited data

Results flagged for a closer look

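The Pdgfb signal of transgenic 4 weeks pool 2, 687.3 units, lay far from the other 3 transgenic pools, which were at 278, 272 and 219. Its gap to the nearest of them, divided by the range of the 4, was past Dixon's 95% critical value. Chance marks about 1 in 20 such sets, and 1 of the 20 sets examined here was past it.

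The genotype difference of Ptn at 4 weeks minus that at 48 hours was −2.16 on the log2 scale (SE 0.44), with adjusted p = 0.66 in limma over 13041 genes. Signals were 829.8 and 890.4 units in transgenic and 1251 and 1173 in control pools at 4 weeks, and 1215 and 1792 in transgenic and 336 and 573 in control pools at 48 hours. It is listed because the pools lay in opposite order at the 2 times, and it did not pass the adjusted threshold.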

How the results depend on the processing

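Over the 8 genes and 6 comparisons, 922 recomputed differences were set against the 48 reported ones. In 893 the direction was kept, in 29, spread over 16 results, it turned, and 0 of the 922 passed an adjusted p of 0.05 in limma. Many of the 922 could not turn, because their setting leaves the difference itself as it was. These include other filters, no trend, the replicate block, each time alone and leaving out a pool of a group outside the comparison. The count of kept directions is therefore no measure of how stable a direction is. The adjusted p of Ptn at 48 hours ranged from 0.302 to 1.00, and its difference from 1.32 to 2.04.

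Leaving out single pools turned these differences, given from lowest to highest: at 48 hours Hgf −0.32 to 0.072 and Wnt7b −0.57 to 0.022; at 4 weeks Igf1 −0.071 to 0.28, Pdgfa −0.24 to 1.24, Pdgfb −0.19 to 1.34 and Pdgfc −0.76 to 0.54. The difference between times turned for Igf1 (−0.35 to 0.0089), the genotype over both times for Pdgfa (−0.33 to 0.29) and Pdgfb (−0.56 to 0.054). Time turned for Hgf (−0.28 to 0.11) and Pdgfb (−0.29 to 1.23) in transgenic pools, and for Igf1 (−0.23 to 0.12), Pdgfa (−0.75 to 0.65) and Pdgfc (−0.23 to 1.07) in control pools. The actin covariate turned Igf1 at 4 weeks to −0.0069 and, over both times, Pdgfb to 0.0076 and Pdgfc to −0.11. Quantile normalization turned time in control pools to 0.0035 for Pdgfa and 0.014 for Grn, and array weights turned Pdgfa over both times to −0.17. The cause was not tested.

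Genes called over the whole table moved as follows. With the 4 arrays of a time alone 1 gene was called at 48 hours and 1 at 4 weeks, and leaving out single pools gave 0 to 1 for the genotype at 48 hours, at 4 weeks and over both times, for the difference between times and for time in transgenic pools. Unadjusted p-values gave 531, 662, 597, 618 and 286. For time in control pools, where 1 gene was called, the count was 0 with the filter at the 75th percentile, with no trend and with array weights, 7 with the actin covariate, 2 at an adjusted p of 0.1 and 803 unadjusted. Without single pools it was 0 to 7, with 7 without control 4 weeks pool 2 and 0 in the other 7 fits. With the replicate block it was 4, and 2 genes were called at 4 weeks; the block called 0 of the 8 genes. The labels do not say what a pool number marks. Deviations of same-numbered pools correlated at −0.09 to 0.13 over the 6 pairs of groups, while pool 2 had the higher endothelial, pericyte, adipocyte and myoepithelial sum in all 4 groups. A pairing is not established. Wnt7b was not kept at the 75th percentile filter. With 2 pools in a group the precision is low, and the SE of a genotype difference at 1 time ran from 0.14 for Grn to 0.55 for Pdgfa.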
